A study of Homo sapiens with 12 samples.

Results

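MUC1 was silenced in LNCaP-AI cells, an androgen-independent line selected from C4-2B prostate cancer cells by long culture without androgen, and the response was read by RNA-seq. All 6 samples were LNCaP-AI/tet-MUC1shRNA cells, which carry a doxycycline (DOX)-inducible shRNA against MUC1 in puromycin-selected transduced cells, grown in phenol red-free RPMI1640 with charcoal-stripped serum. The comparison was 3 cultures given DOX at 500 ng/ml for 7 days, which turns the shRNA on, against 3 cultures given vehicle, and it takes 6 of the 12 samples of the series, the other 6 being DU-145 cells. The sample labels call the groups shCTL and shMUC1, whereas the series design and the methods have the same vector-carrying cells given vehicle or DOX, so the groups are called vehicle and DOX here. Cells with a control shRNA under DOX were not analysed here, and an effect of DOX itself cannot be told apart from that of the shRNA. Of 58037 genes in the counts, 16030 reached 10 counts in 3 or more of these libraries and were tested. In bulk RNA fewer cells of a kind and less RNA per cell cannot be told apart, and p values measure the spread between these cultures only.

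Between 16569613 and 26961777 counts were assigned to genes per sample (median 19098403.5). The libraries did not group by treatment. Vehicle 1, DOX 2 and DOX 3 (set A below) lay at one end of the first principal component (82.5% of the variance), and vehicle 2, vehicle 3 and DOX 1 (set B) at the other, while treatment followed the second component with 12.3%. With treatment in the fit, 6535 genes differed between the sets at an adjusted p under 0.05. Markers of the labelled cell type were present throughout, with 12 of 12 luminal prostate markers at 10 counts or more in every LNCaP-AI sample, KLK3 among them. The sets differed in markers of other epithelial cells. All 12 basal epithelial markers reached 10 counts in each set B sample, with a summed level of 454 to 573 CPM (counts scaled to library size), whereas 3 or 4 of 12 did so in set A, at 31.9 to 35.3 CPM, and TP63, KRT5 and KRT6A were at 0 in both DOX samples of set A. Markers of DU-145 type cells gave 1823 to 2022 CPM in set B and 151 to 324 CPM in set A, against 4185 to 4946 CPM in the DU-145 samples. The basal markers summed to 131 to 255 CPM in the DU-145 samples, below set B. There 5 of 12 reached 10 counts and KRT17 was at 0 in each sample. Of the 12 DU-145 type markers 10 reached 10 counts in each DU-145 sample, and all 12 did in each set B sample. KRT5 and KRT6A are in both lists. Since each set holds vehicle and DOX samples, log2 fold changes are given below for the 6 samples and also within set A and within set B, and the part of these other cell markers in any result was not tested.

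**Figure D1:**
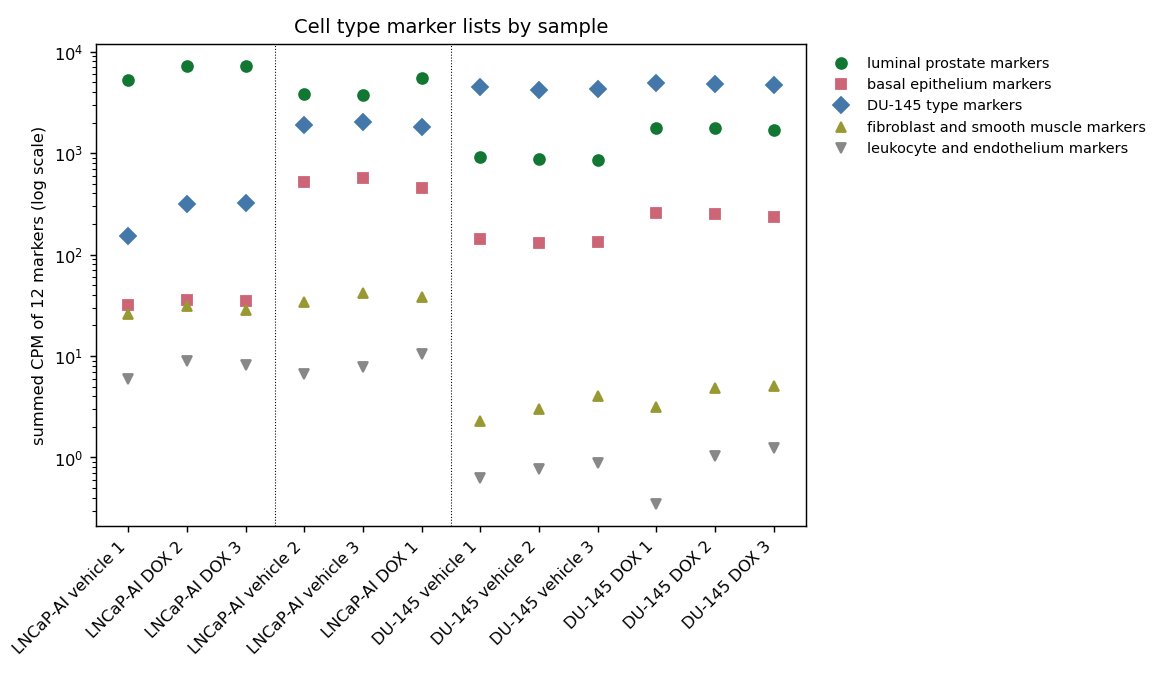
Summed CPM (log scale) of 5 lists of 12 cell type markers in each sample, with LNCaP-AI set A on the left, LNCaP-AI set B in the middle and DU-145 samples on the right. Basal epithelial markers lie between 454 and 573 CPM in set B and between 31.9 and 35.3 CPM in set A, whatever the treatment, while luminal markers stay between 3775 and 7230 CPM in all LNCaP-AI samples.

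MUC1 encodes a transmembrane mucin of epithelial cells whose C-terminal subunit, MUC1-C, signals from the membrane and enters the nucleus. Many of the cell cycle genes described below are known to be held in check by p21, the CDKN1A product, an inhibitor of cyclin-dependent kinases: with these kinases inhibited, RB-family proteins stay bound to E2F factors, and the DREAM complex occupies E2F sites of replication genes and the cell cycle homology region (CHR) of mitotic genes. In prostate cells androgens drive genes of the secretory luminal cell, such as KLK3, which encodes prostate-specific antigen.

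MUC1 itself (ENSG00000185499, chromosome 1 of GRCh38, 155185824 to 155192916) had 36, 25 and 52 counts in vehicle samples 1, 2 and 3 and 8, 6 and 3 counts in DOX samples 1, 2 and 3. All DOX samples lay below all vehicle samples, although the gene was close to the detection floor of 3 counts. Normalized to library size, MUC1 was 1.69 ± 0.251 CPM (SD, n = 3) with vehicle and 0.293 ± 0.101 CPM (SD, n = 3) with DOX, a log2 fold change of -2.50 (SE 0.330, adjusted p = 0.0139, edgeR). Fitted alone, set A gave -2.62 and set B -2.29, so the loss of MUC1 mRNA was of like size in both. The call was lost when vehicle 2, vehicle 3, DOX 2 or DOX 3 was left out, with adjusted p from 0.0562 to 0.0820 and log2 fold changes from -2.65 to -2.22. Of the other mucins 3 had enough counts to be tested, and 0 of them were called by edgeR or DESeq2 (1, lower, at an unadjusted p under 0.05).

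With DOX, 1158 genes (7.22% of those tested) were called higher and 885 (5.52%) lower at an adjusted p under 0.05. Leaving out 1 sample at a time moved these counts strongly: without vehicle 2 or vehicle 3 there were 0 calls in edgeR (3965 and 3871 genes at an unadjusted p under 0.05), and without DOX 2 or DOX 3 there was 1 (3289 and 3662 unadjusted), whereas without vehicle 1 there were 1570 higher and 648 lower and without DOX 1 there were 1665 and 1238. DESeq2 on all 6 samples called 1897 higher and 1620 lower. With the set as a term in the model 3013 genes (18.8%) were higher and 3258 (20.3%) lower, and these held all 2043 genes of the fit without it. Within both sets 5797 genes (36.2%) had a higher and 6659 (41.5%) a lower level with DOX. A log2 fold change of at least 1 within each set was met by 266 genes upward (1.66%), of which 197 were protein coding and 62 long noncoding, and by 94 genes downward (0.586%), of which 84 were protein coding. Of these, 259 and 84 were called. DOX and vehicle values did not overlap for 3172 genes upward (19.8%) and 2822 downward (17.6%).

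**Figure D2:**
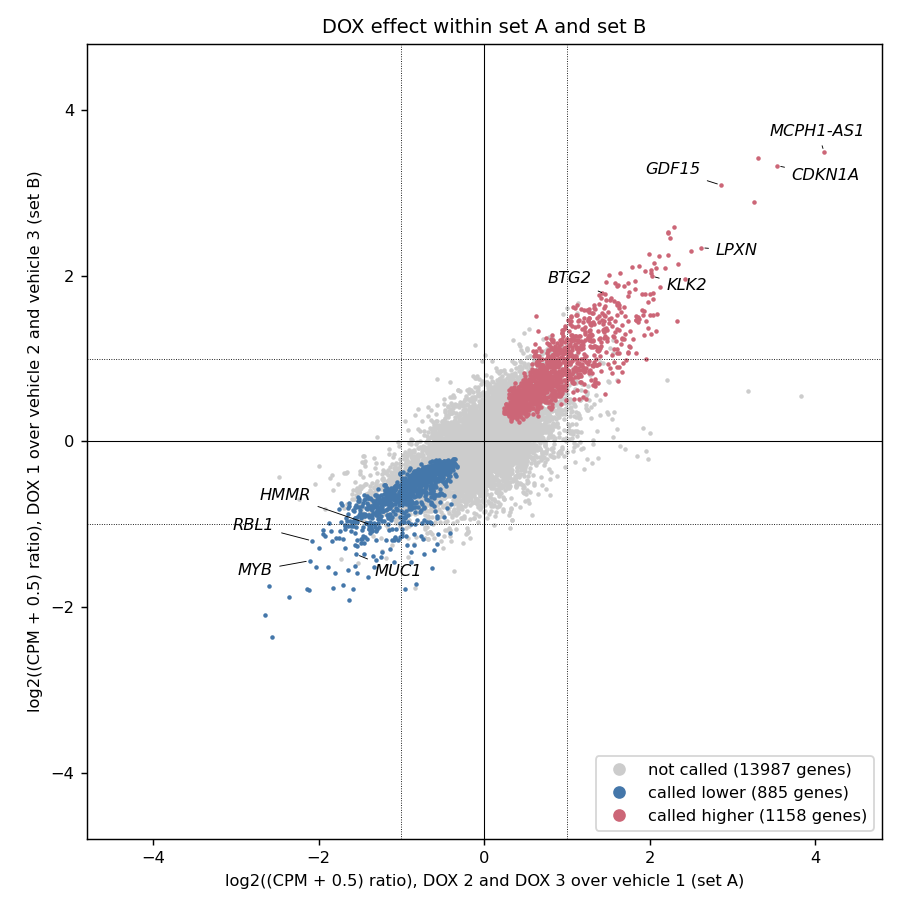
Each point is 1 of the 16030 genes, with the log2 ratio of CPM + 0.5 of DOX 2 and DOX 3 over vehicle 1 (set A) on the x axis and of DOX 1 over vehicle 2 and vehicle 3 (set B) on the y axis, coloured by the call over all 6 samples. Called genes lie along the diagonal, with MCPH1-AS1, CDKN1A and GDF15 at the upper end and MYB and RBL1 among those at the lower end, and dotted lines mark a log2 ratio of 1 in either direction.

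The strongest response among the brakes of the cell cycle was that of CDKN1A (chromosome 6, 36676460 to 36687337). It had 77.4, 66.4 and 78.6 CPM in the vehicle samples and 733, 905 and 905 CPM in the DOX samples. The groups were far apart, with all DOX samples at least 733 CPM. Its log2 fold change was 3.51 (SE 0.133, adjusted p = 0.00233), with 3.54 in set A and 3.33 in set B. BTG2, an antiproliferative gene, rose from 50.3, 30.4 and 34.0 CPM to 112, 141 and 138 CPM (log2 fold change 1.77, SE 0.216, adjusted p = 0.0125). CDKN2B, which encodes the CDK4/6 inhibitor p15, rose by a log2 fold change of 2.60 (adjusted p = 0.0123) from a low level of 0.810 to 1.12 CPM. In the opposite direction RBL1, which encodes the RB relative p107 and is itself an E2F target, fell from 69.2, 64.2 and 57.6 CPM to 26.2, 16.2 and 15.8 CPM (log2 fold change -1.71, SE 0.221, adjusted p = 0.0134), and CDKN2C, the p18 inhibitor, fell by 0.96 on the log2 scale (adjusted p = 0.0270). Of 19 CDK inhibitors and G1 brakes tested, 3 were higher (15.8%) and 2 lower (10.5%), beside 7.22% and 5.52% of all genes. The median log2 fold change was 0.23 beside -0.05 for all genes. RB1 was not called, with log2 fold changes of -0.16 and -0.07 in sets A and B.

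GDF15, a secreted stress cytokine of the TGF-beta family, rose from 27.5, 22.3 and 16.6 CPM to 170, 191 and 214 CPM, a log2 fold change of 3.11 (SE 0.211, adjusted p = 0.0109). PHLDA3, which encodes an inhibitor of AKT signalling, rose by 1.35 on the log2 scale (adjusted p = 0.0123) from 24.9, 19.3 and 23.5 CPM to 50.8, 64.1 and 57.5 CPM. Of the 35 apoptosis genes tested, 4 were higher (11.4%, beside 7.22% of all genes) and 0 lower in edgeR (3 lower at an unadjusted p under 0.05, 2 by DESeq2). The death receptor genes TNFRSF10A (log2 fold change 0.47) and TNFRSF10B (0.58) and the BH3-only gene BMF (0.64) were among those higher.

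Genes of mitosis formed the group with the largest share of calls among the 29 lists of genes described here. Of 88 tested, 64 (72.7%, beside 5.52% of all genes) were called lower by edgeR and 85 by DESeq2, and 0 were higher by either tool or at an unadjusted p under 0.05. Within both sets 87 were lower, beside 41.5% of all genes. The median log2 fold change was -1.15, with -1.38 in set A and -0.72 in set B. Called members fell by 0.48 (BUB3) to 1.66 (PIF1) on the log2 scale. HMMR, a spindle and hyaluronan-binding protein gene, had 216, 223 and 195 CPM with vehicle and 103, 80.6 and 87.0 CPM with DOX (log2 fold change -1.23, SE 0.118, adjusted p = 0.0123). PIF1, which encodes a DNA helicase, had 14.9, 14.3 and 15.6 CPM with vehicle and 4.62, 4.44 and 5.14 CPM with DOX (log2 fold change -1.66, SE 0.131, adjusted p = 0.0119). Neither gene showed any overlap between groups, which the rule that picked them as top genes required. KNL1, a kinetochore scaffold gene, fell by 1.54 on the log2 scale from 160 ± 16.8 to 55.0 ± 9.32 CPM (SD, n = 3 each), and FAM83D, whose product recruits casein kinase to the spindle, by 1.35 from 134 ± 20.9 to 52.3 ± 6.36 CPM. MELK, a mitotic kinase gene, fell by 1.21, GAS2L3, which binds actin and microtubules in dividing cells, by 1.47, and ARHGEF39 by 1.20. AURKA, the spindle kinase gene that the study follows as a marker of neuroendocrine progression, stood at 138, 193 and 179 CPM with vehicle and at 124, 60.4 and 58.5 CPM with DOX. Its DOX 1 sample lay close to vehicle 1, and it was not called over the 6 samples (log2 fold change -1.07, adjusted p = 0.0824), whereas with the set in the model the adjusted p was 1.54e-07.

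A short element was found in many promoters of the mitosis list, though not in that of MELK. The CHR letters TTTGAA, searched on both strands of RefSeq windows from 250 bases before to 50 after the transcription start (GRCh38.p14), were present in 44 of the 70 mitosis promoters with an entry (62.9%), beside 15.4% of all 27305 promoters and 9.83% of those of genes tested. The share was 19.6% for genes called lower and 8.79% for genes called higher. Within the mitosis list 40 of 56 matches lay from 50 bases before to 50 after the start, and 28 of the 50 called-lower members with an entry had one there. The variant TTTAAA was in 25.7% of the mitosis promoters (12.3% of all, 7.57% of those of genes tested), and CCAAT, the NF-Y element often found beside a CHR, in 72.9% (35.7% and 36.8%). For the 5 called members with the smallest adjusted p and TTTGAA near the start, the window from 100 bases before to 50 after the start is shown because it places the element against the start, with TTTGAA or its reverse complement in capitals.
PIF1, chr15:64825598-64825747, minus strand: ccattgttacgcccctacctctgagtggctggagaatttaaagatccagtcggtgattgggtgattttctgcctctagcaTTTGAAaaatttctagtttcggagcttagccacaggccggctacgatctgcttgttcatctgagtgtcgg
HMMR, chr5:163460532-163460681, plus strand: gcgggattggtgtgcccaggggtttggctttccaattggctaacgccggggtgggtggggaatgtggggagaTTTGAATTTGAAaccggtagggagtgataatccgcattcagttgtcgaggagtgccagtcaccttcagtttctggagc
MAD2L1, chr4:120066799-120066948, minus strand: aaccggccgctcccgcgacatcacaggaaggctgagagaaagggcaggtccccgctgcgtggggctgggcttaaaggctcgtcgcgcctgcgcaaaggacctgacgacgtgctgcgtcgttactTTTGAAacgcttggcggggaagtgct
DEPDC1, chr1:68497033-68497182, minus strand: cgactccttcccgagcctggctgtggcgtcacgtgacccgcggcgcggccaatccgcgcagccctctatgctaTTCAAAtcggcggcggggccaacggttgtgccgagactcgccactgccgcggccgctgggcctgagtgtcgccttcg
NUSAP1, chr15:41332781-41332930, plus strand: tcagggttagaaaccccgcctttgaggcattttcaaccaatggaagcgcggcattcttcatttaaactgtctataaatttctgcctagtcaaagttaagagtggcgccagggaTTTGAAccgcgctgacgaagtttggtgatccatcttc
The element began 20 bases before the start in PIF1, at 28 and 22 bases before it as 2 adjoining copies in HMMR, 27 bases before it on the opposite strand in DEPDC1, and 25 and 14 bases after it in MAD2L1, a spindle checkpoint gene, and NUSAP1, a spindle-binding protein gene. A match of letters is a description of the sequence and not a measured binding site.

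**Figure D3:**
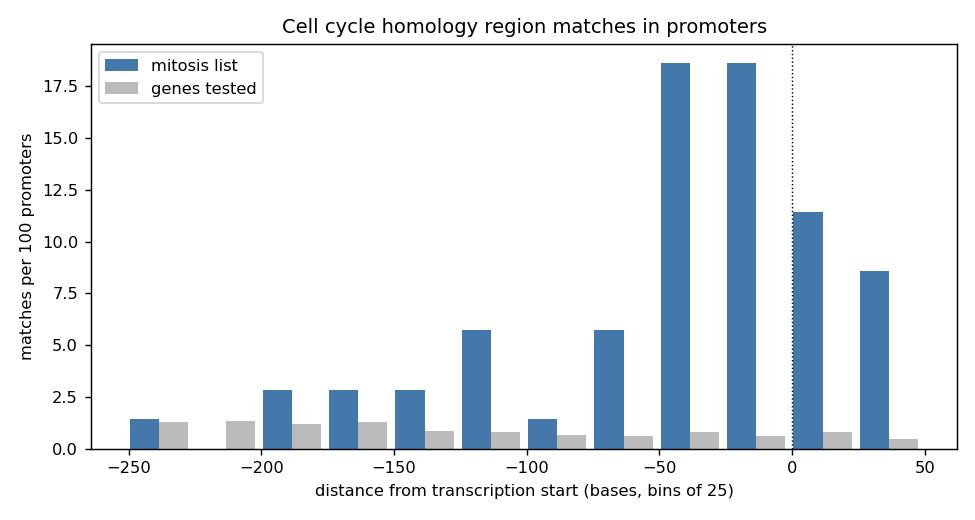
Matches of TTTGAA on either strand per 100 promoters (y axis) by distance from the transcription start in bins of 25 bases (x axis), for the 70 mitosis promoters and for the 11560 promoters of genes tested. The mitosis promoters reach 18.6 matches per 100 in both bins just before the start, where the tested genes have 0.813 and 0.631.

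Genes of DNA replication fell with DOX as well. Of 56 tested, 32 (57.1%, beside 5.52% of all genes) were called lower by edgeR and 48 by DESeq2, and 0 were higher by either tool or at an unadjusted p under 0.05. In both sets 54 were lower, beside 41.5% of all genes. The median log2 fold change was -0.80 (-0.95 in set A, -0.47 in set B). RFC3, a subunit of the clamp loader, fell from 173, 140 and 132 CPM to 63.2, 57.0 and 59.4 CPM, the largest drop of the list (log2 fold change -1.31, SE 0.123, adjusted p = 0.0123). GINS1, of the replicative helicase complex, fell by 0.99 and the nuclease-helicase gene DNA2 by 0.96 on the log2 scale. Of 26 genes of nucleotide synthesis 8 were lower (30.8%, beside 5.52% of all genes) and 0 higher in edgeR (1 higher by DESeq2 and at an unadjusted p under 0.05). Thymidine kinase TK1 was at -0.90 and the ribonucleotide reductase subunit RRM1 at -0.80. Of 43 genes of homologous recombination and Fanconi repair 22 were lower (51.2%, beside 5.52% of all genes) and 0 higher in edgeR, with 0 higher also in DESeq2 and at an unadjusted p under 0.05 (median -0.82). BRCA1 fell from 158, 118 and 107 CPM to 47.0, 51.7 and 54.6 CPM (log2 fold change -1.32, SE 0.164, adjusted p = 0.0128), XRCC2, a homologous recombination gene, by 1.37 and the checkpoint scaffold TOPBP1 by 0.85. The E2F letters TTCGCGC were in 20.8% of the 48 replication promoters (2.30% of all, 4.01% of those of genes tested) and TTGGCGC in 27.1% (3.12% and 4.89%), while TTTGAA was in 4.17%. In the mitosis promoters the E2F letters were in 7.14% and 11.4%. These shares were not tested. RBL1 carries both E2F forms close together, shown in capitals in its window of 300 bases, beginning 25 and 15 bases before the start.
RBL1, chr20:37095948-37096247, minus strand: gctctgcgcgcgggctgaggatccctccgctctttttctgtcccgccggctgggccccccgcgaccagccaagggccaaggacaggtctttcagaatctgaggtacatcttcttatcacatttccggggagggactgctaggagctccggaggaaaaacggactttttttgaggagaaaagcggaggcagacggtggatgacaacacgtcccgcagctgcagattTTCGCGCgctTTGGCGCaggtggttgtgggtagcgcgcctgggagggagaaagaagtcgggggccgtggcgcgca

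Not every driver of the G1 to S transition went down. Of 20 cyclins, CDKs and E2F-related factors, 9 were lower and 2 higher. CCND1, which encodes cyclin D1, had 467, 449 and 459 CPM with vehicle and 703, 786 and 753 CPM with DOX, a rise of 0.70 on the log2 scale (SE 0.0775, adjusted p = 0.0123) without overlap, and CCNE1, cyclin E1, rose by 0.41 (adjusted p = 0.0478). Transcription factors that act after these kinases fell, MYBL2 by 1.11, E2F8 by 1.25 and E2F1 by 0.82. MYB, a proto-oncogene related to MYBL2, fell from 21.2, 15.6 and 15.4 CPM to 5.39, 4.38 and 4.67 CPM (log2 fold change -1.85, SE 0.186, adjusted p = 0.0123). Of 41 genes of the nuclear lamina and pores 15 were lower (36.6%) and 1, SYNE1, higher (2.44%), beside 5.52% and 7.22% of all genes. TMPO, which encodes lamina-associated polypeptide 2, fell from 354, 276 and 272 CPM to 129, 114 and 117 CPM, and the pore genes NUP50 and NUP43 fell by 0.68 and 0.95 on the log2 scale. Chromatin regulators were called lower in 9 of 54 (16.7%, beside 5.52% of all genes, median -0.22) and higher in 0 by edgeR and DESeq2 (1 at an unadjusted p under 0.05). EZH2, the Polycomb methyltransferase gene, fell from 72.6 ± 4.02 CPM to 44.1 ± 5.39 CPM (SD, n = 3 each, log2 fold change -0.72, SE 0.113, adjusted p = 0.0180), the chromatin ATPase gene ATAD2 fell by 1.21 and the 5-methylcytosine dioxygenase gene TET3 by 0.64.

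**Figure D4:**
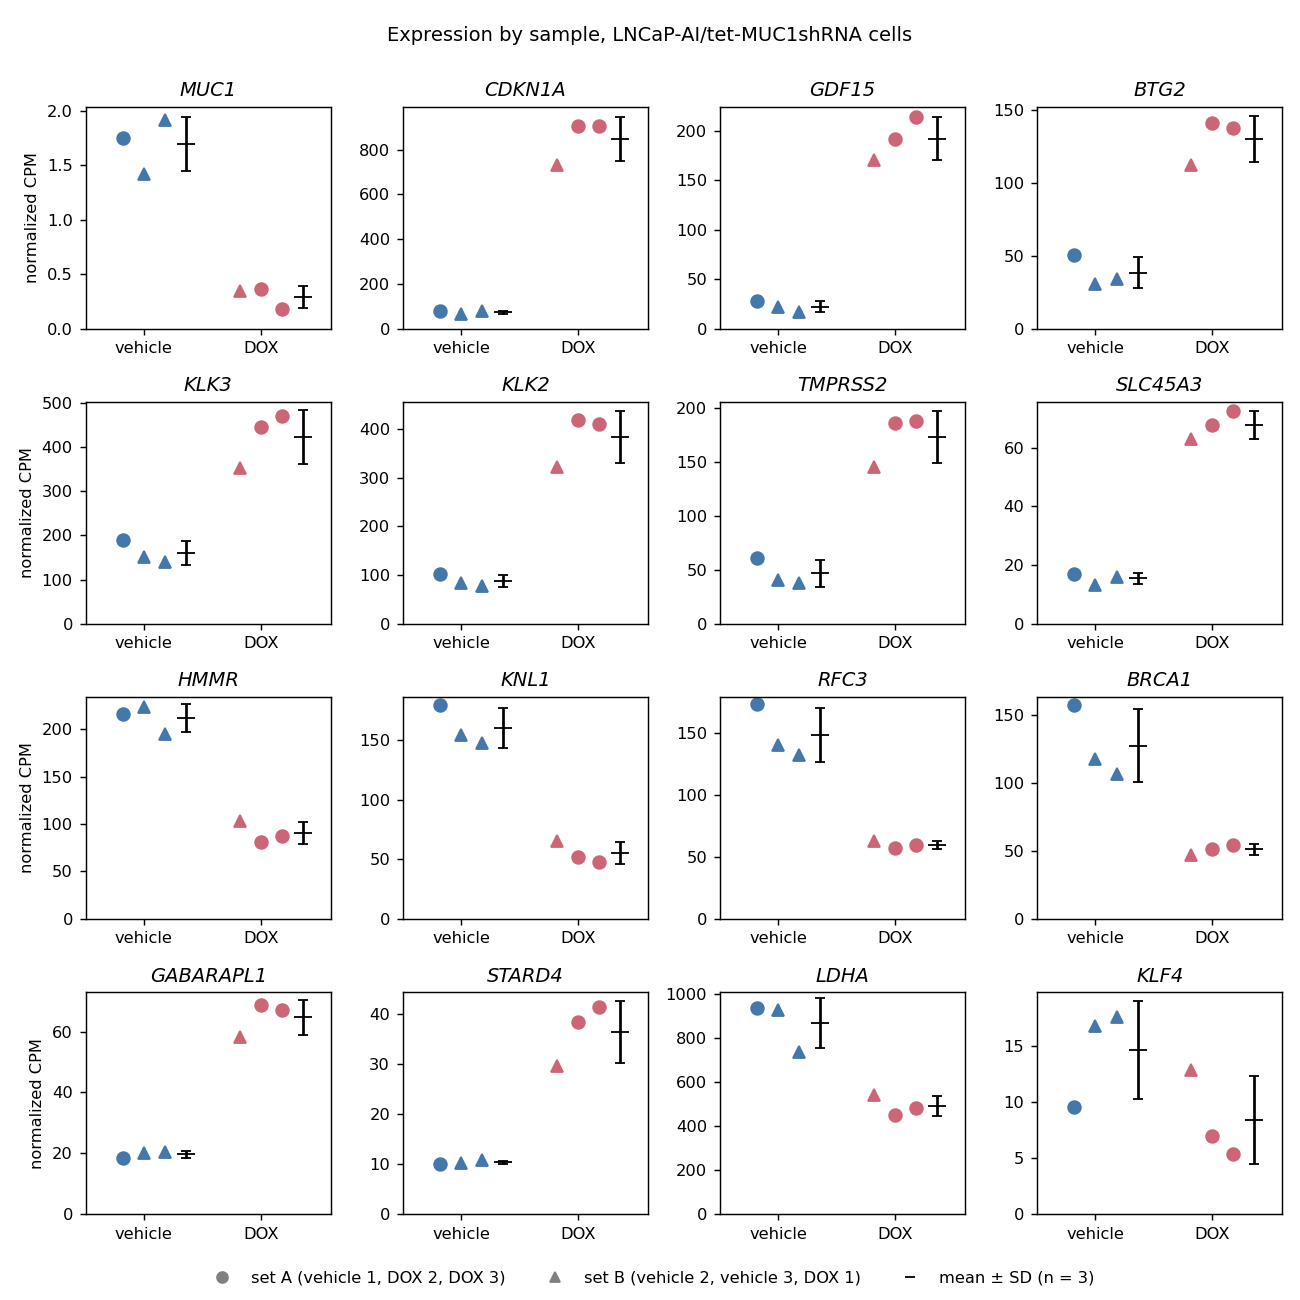
Normalized CPM of 16 genes in each of the 6 samples, by treatment, with circles for set A, triangles for set B and bars for the mean ± SD (n = 3). CDKN1A, GDF15, KLK2 and SLC45A3 are higher and HMMR, KNL1, RFC3 and BRCA1 lower in every DOX sample, while KLF4 differs by set, with triangles above circles in both treatments.

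Of 43 androgen-responsive genes tested, 20 were called higher (46.5%), 1 lower (2.33%) and 22 not called, beside 7.22% higher and 5.52% lower of all genes. Within both sets 28 were higher and 10 lower, beside 36.2% and 41.5% of all genes. A log2 fold change of at least 1 within both sets was met upward by 14 (1.66% of all genes). The median log2 fold change was 0.50, with 0.62 in set A and 0.44 in set B. The list was chosen with the study's androgen result on these samples known and is no independent evidence of its direction. SLC45A3, a solute carrier gene of prostate epithelium, had 17.0, 13.2 and 16.0 CPM with vehicle and 63.0, 67.6 and 72.5 CPM with DOX (log2 fold change 2.13, SE 0.123, adjusted p = 0.00783). Its lowest DOX sample was above its highest vehicle sample, which the rule that picked it as a top gene required. KLK2 rose by 2.13 from 101, 84.0 and 76.6 CPM to 322, 418 and 410 CPM, although it is a close paralog of KLK3 and the counting could divide reads between them. KLK3 rose from 190, 150 and 140 CPM to 353, 444 and 470 CPM, and the protease gene TMPRSS2 from 61.2, 40.4 and 38.1 CPM to 145, 186 and 188 CPM. HERC3, an E3 ligase gene, rose by 1.74. MPHOSPH9 was the member called lower (-0.52, adjusted p = 0.0396). In SLC45A3, KLK2, KLK3 and TMPRSS2 vehicle 1 was the highest of the vehicle samples.

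The 12 luminal prostate markers, several of them androgen-responsive, summed to 5300, 3856 and 3775 CPM with vehicle and to 5471, 7230 and 7132 CPM with DOX. Of the 12, 5 were called higher (41.7%, beside 7.22% of all genes). Of 29 androgen pathway and luminal lineage genes 3 were higher (10.3%, beside 7.22% of all genes) and 0 lower in edgeR (0 lower by DESeq2, 1 at an unadjusted p under 0.05). Those higher were PCAT1, a prostate long noncoding RNA, by 2.17, HSD3B1, an enzyme of androgen synthesis near the floor at 0.284 to 0.728 CPM with vehicle, by 2.08, and HSD17B4, a peroxisomal dehydrogenase gene, by 0.95. The letters AGAACA, the core of an androgen response element, were in 4 of 29 promoters of androgen-responsive genes with an entry (13.8%), beside 14.9% of all promoters and 8.98% of those of genes tested. The KLK3 window is shown because it holds that core, in capitals, beginning 170 bases before the start.
KLK3, chr19:50854665-50854964, plus strand: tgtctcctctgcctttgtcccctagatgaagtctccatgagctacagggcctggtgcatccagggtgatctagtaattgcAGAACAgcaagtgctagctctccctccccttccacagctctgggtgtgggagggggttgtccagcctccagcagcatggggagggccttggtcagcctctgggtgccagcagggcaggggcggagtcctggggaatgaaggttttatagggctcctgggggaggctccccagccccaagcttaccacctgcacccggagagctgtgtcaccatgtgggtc

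By qRT-PCR the study reported lower BRN2, SOX2 and SYP mRNA on MUC1 silencing in LNCaP-AI cells, relative to DOX-treated cells with a control shRNA. Its immunoblots showed less BRN2, MYCN, SOX2, OCT4, KLF4 and MYC protein. In the RNA-seq counts 4 of the genes for these factors were too low to be tested. MYCN and SOX2 had 0 counts in all 6 samples, which allows up to 0.181 CPM in the shallowest library. POU3F2, which encodes BRN2, had 12, 4 and 3 counts with vehicle and 6, 2 and 1 with DOX, and POU5F1, which encodes OCT4, had 15, 3 and 4 and then 2, 3 and 6. These 4 genes were not tested, and their counts are too few to read a difference or its absence. Of the factors that could be tested, MYC was 292, 302 and 319 CPM with vehicle and 309, 279 and 284 CPM with DOX (log2 fold change -0.07, adjusted p = 0.612) and KLF4 was not called (-0.80, adjusted p = 0.226), with every set B sample above every set A sample and a lower level with DOX within each set. With the set in the model KLF4 was called lower (-0.51, adjusted p = 0.00264). SYP, which encodes synaptophysin, was 2.28, 3.64 and 3.64 CPM with vehicle and 5.35, 4.20 and 4.44 CPM with DOX, above every vehicle sample and not called (0.55, adjusted p = 0.185), whereas with the set in the model it was called higher (0.70, adjusted p = 0.00275). Of 22 neuroendocrine and neural genes tested 2 were called and both were higher (9.09%, near the 7.22% of all genes), PROX1, a homeobox gene, by 2.86 from at most 0.388 CPM, and PCSK1N, a proprotein convertase inhibitor gene, by 1.67. Of 22 pluripotency and MYC network genes 3 were lower (13.6%, beside 5.52% of all genes) and 0 higher in edgeR (4 higher by DESeq2, 5 at an unadjusted p under 0.05). MXD3 fell by 1.02, KLF11 by 0.66 and KLF3 by 0.38 on the log2 scale. PEG10 followed the sets, with 1.94, 208 and 194 CPM with vehicle and 174, 0.960 and 0.769 CPM with DOX, and with the set in the model it was called lower (-0.31, adjusted p = 0.0468).

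Of 60 interferon-stimulated genes 11 were higher (18.3%) and 2 lower (3.33%), beside 7.22% and 5.52% of all genes, and the median log2 fold change was 0.22. GBP2, a guanylate-binding GTPase gene, rose from 2.48, 2.16 and 2.36 CPM to 9.03, 11.8 and 11.6 CPM (log2 fold change 2.21, SE 0.174, adjusted p = 0.0119), IFIT2 rose by 1.67 and the ubiquitin-like modifier ISG15 by 1.08. OAS3, the double-stranded RNA sensor gene, went the other way, from 64.8, 54.4 and 59.0 CPM to 33.5, 30.2 and 28.0 CPM (-0.96, adjusted p = 0.0123), as did TRIM14 (-0.51). Of 35 genes in the list of secreted inflammatory factors 0 were called by edgeR or DESeq2 (1, lower, at an unadjusted p under 0.05). The list also holds NFKB2, which encodes an NF-kB subunit and no secreted factor. The level of these genes followed the sets: the median log2 fold change was -0.98 over the 6 samples but -0.06 within set A and -0.19 within set B. With the set in the model 2 were called higher and 3 lower. TIMP2, a metalloproteinase inhibitor gene, was 160, 110 and 117 CPM with vehicle and 90.9, 104 and 101 CPM with DOX, and NFKB2 was 44.6, 39.6 and 51.3 CPM with vehicle and 54.6, 58.2 and 52.1 CPM with DOX. Neither was called over the 6 samples, and with the set in the model TIMP2 was lower (-0.48, adjusted p = 8.21e-05) and NFKB2 higher (0.28, adjusted p = 0.0246). The basal epithelial markers of set B moved with these medians, and their part was not tested. The same holds for 42 genes of ERK feedback and immediate early response (median -0.70, with -0.02 and -0.18 within the sets) and 51 epithelial and mesenchymal genes (median -0.38, with -0.01 and -0.15).

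**Figure D5:**
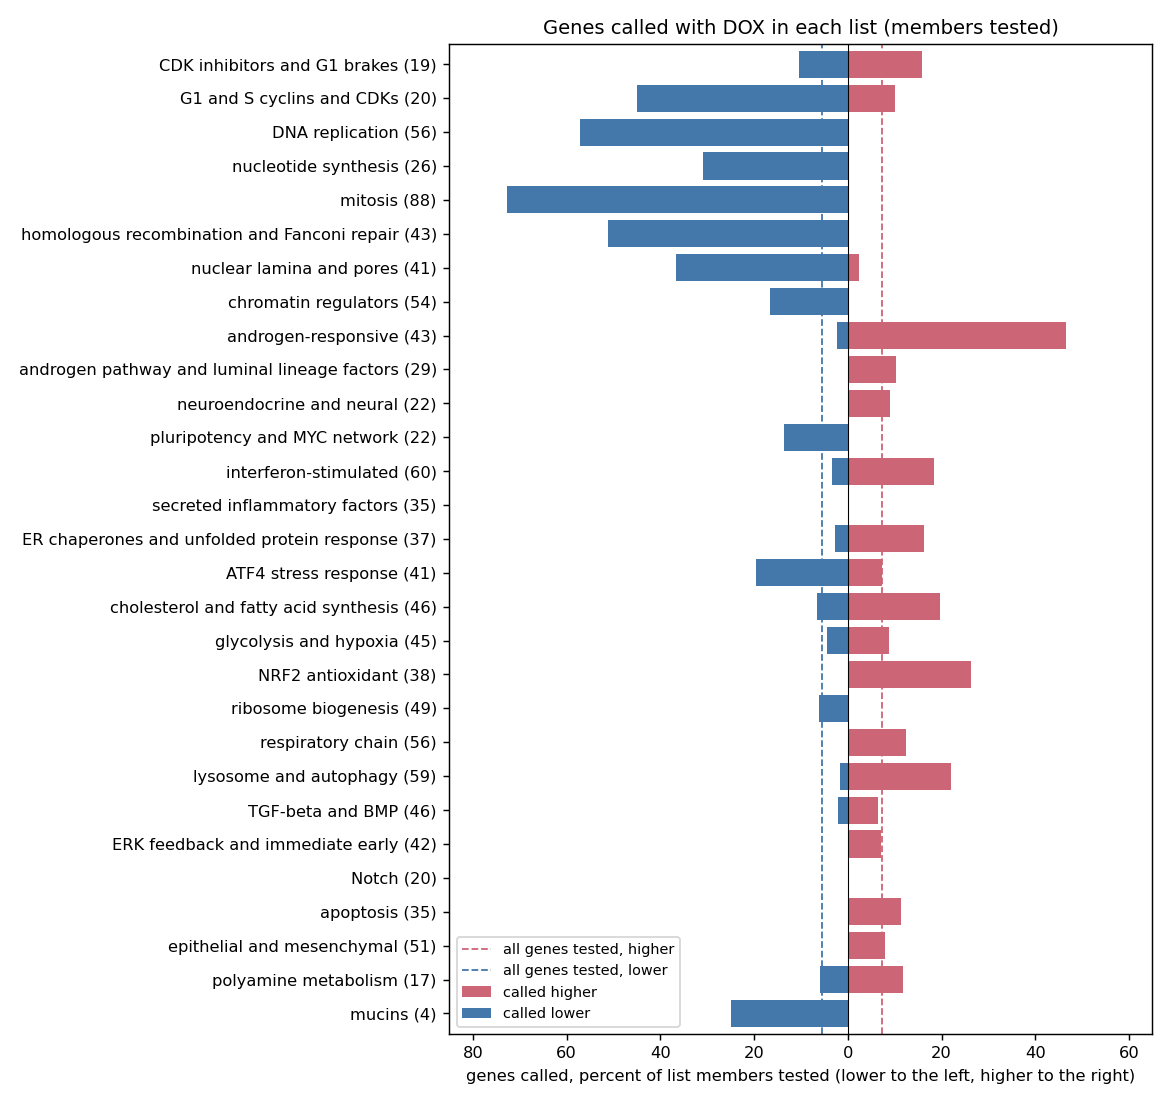
Share of tested members called higher (right) and lower (left) with DOX for 29 gene lists, with the number tested in brackets and dashed lines at the share of all genes tested (7.22% higher, 5.52% lower). Mitosis (72.7% lower), DNA replication (57.1% lower), homologous recombination and Fanconi repair (51.2% lower), G1 and S cyclins and CDKs (9 of 20 lower) and androgen-responsive genes (46.5% higher) stand farthest from these lines.

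Of 59 genes of lysosomes and autophagy 13 were called higher (22.0%, beside 7.22% of all genes) and 1 lower. GABARAPL1, which encodes an autophagosome membrane protein, went from 18.4, 19.9 and 20.5 CPM to 58.2, 68.7 and 67.1 CPM (log2 fold change 1.72, SE 0.0997, adjusted p = 0.00783). SQSTM1, the autophagy receptor p62, went from 137, 133 and 155 CPM to 299, 312 and 319 CPM (1.13, SE 0.0857, adjusted p = 0.0112), and the lysosomal protease gene CTSD rose by 1.16. The vehicle samples of GABARAPL1 and SQSTM1 were close together in both sets. ULK2, a kinase that starts autophagy, fell by 0.76. Of 38 NRF2 antioxidant genes 10 were higher in edgeR (26.3%, beside 7.22% of all genes) and 0 lower in edgeR, in DESeq2 or at an unadjusted p under 0.05. Malic enzyme ME1 was at 1.08, the iron-binding nuclear protein PIR at 1.25 and peroxiredoxin PRDX1 at 0.66. Respiratory chain genes were higher in 7 of 56 (12.5%, beside 7.22% of all genes) and lower in 0 by edgeR (2 lower by DESeq2 and at an unadjusted p under 0.05), with changes such as 0.68 for NDUFA4, 0.52 for NDUFA1 and 0.40 for ATP5MC1. Ribosome biogenesis genes were lower in 3 of 49 by edgeR (6.12%, near the 5.52% of all genes), DDX18, UTP15 and TSR1 by 0.49 to 0.52. In this list 0 were higher by either tool or at an unadjusted p under 0.05.

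Metabolic genes moved in both directions. In cholesterol and fatty acid synthesis 9 of 46 were higher (19.6%) and 3 lower (6.52%), beside 7.22% and 5.52% of all genes. STARD4, a cholesterol carrier gene, rose from 10.0, 10.2 and 10.7 CPM to 29.6, 38.5 and 41.5 CPM (log2 fold change 1.82, SE 0.152, adjusted p = 0.0123) and the sterol reductase gene TM7SF2 by 1.45, whereas EBP, a sterol isomerase gene, fell by 0.51, the desaturase gene FADS1 by 0.83 and the elongase gene ELOVL6 by 0.45. In glycolysis and hypoxia 4 of 45 were higher and 2 lower, a share of 8.89% and 4.44% that is near the background. LDHA, which encodes lactate dehydrogenase A, fell from 936, 927 and 737 CPM to 541, 450 and 479 CPM (-0.82, SE 0.129, adjusted p = 0.0179) and the mutase gene PGAM1 by 0.99, while the aldolase genes ALDOA and ALDOC rose by 0.66 and 1.10. TXNIP, a thioredoxin inhibitor that limits glucose uptake, rose by 1.11. In polyamine metabolism 2 of 17 were higher (11.8%) and 1 lower (5.88%), beside 7.22% and 5.52% of all genes. The mitochondrial arginase gene ARG2 went from 12.9, 9.32 and 6.99 CPM to 37.1, 47.1 and 49.4 CPM (2.20, SE 0.251, adjusted p = 0.0123, edgeR). SAT2 rose by 0.49 and the methionine adenosyltransferase gene MAT2A fell by 0.61.

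Stress and signalling lists were mixed. Of 41 ATF4 targets 8 were lower (19.5%) and 3 higher (7.32%), beside 5.52% and 7.22% of all genes, with a median of -0.30. The tryptophan-tRNA synthetase gene WARS1 fell by 1.25, the glycine transporter gene SLC6A9 by 0.97 and STC2 by 0.67, while ATF3 rose by 1.19 and SESN2 by 1.25. Of 37 ER chaperone and unfolded protein response genes 6 were higher and 1 lower, SEC24D, a coat protein of ER export vesicles, by 1.00, EDEM2 by 0.74 and SEC61B by 0.39, with DNAJC10 lower by 0.68. Of 46 TGF-beta and BMP genes 3 were higher (6.52%) and 1 lower (2.17%), no more than the 7.22% and 5.52% of all genes. ID2 was at 0.65 and TGFB3 at -1.65 from 1.26 to 1.76 CPM with vehicle. ID4 went from 3.50, 3.07 and 2.32 to 5.86, 10.1 and 9.28 CPM. Of the ERK and immediate early genes 3 of 42 were higher in edgeR (7.14%, near the 7.22% of all genes). In edgeR 0 were lower (0 by DESeq2, 1 at an unadjusted p under 0.05). The phosphatase gene DUSP2 rose by 1.36, the receptor kinase gene ERBB2 by 0.98 and JUND by 0.31. Among epithelial and mesenchymal genes 0 were lower in edgeR (2 by DESeq2 and at an unadjusted p under 0.05). In edgeR 4 of 51 were higher (7.84%, near the 7.22% of all genes), and these 4 were of both kinds. The tight junction gene CLDN4 rose by 1.31, the intermediate filament gene VIM from 29.4, 28.9 and 32.2 CPM to 54.8, 59.6 and 58.5 CPM (0.93, SE 0.0833, adjusted p = 0.0123), and the laminin gene LAMC1 by 0.76. Of 20 genes in the Notch list 0 were called by edgeR, while 1 was higher and 2 lower by DESeq2, 1 and 3 at an unadjusted p under 0.05, and 3 and 7 with the set in the model. The ligand gene JAG1 was 83.5, 110 and 106 CPM with vehicle and 149, 138 and 131 CPM with DOX (0.49, adjusted p = 0.0541), and RBPJ, the DNA-binding partner of Notch, was 146, 130 and 120 CPM with vehicle and 101, 107 and 105 CPM with DOX (-0.34, adjusted p = 0.0682). With the set in the model JAG1 was called higher (0.58, adjusted p = 7.28e-06) and RBPJ lower (-0.38, adjusted p = 0.000683).

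Several of the genes with the firmest changes belong to no list above. LPXN, which encodes the focal adhesion protein leupaxin, rose from 6.75, 5.34 and 6.63 CPM to 32.3, 43.5 and 44.7 CPM (log2 fold change 2.68, SE 0.180, adjusted p = 0.0109). KIAA0319, a membrane protein gene, rose by 2.59 from 1.55 to 1.71 CPM in the vehicle samples. The retinol dehydrogenase gene RDH11 rose by 1.29, and the histone gene H2BC5 rose from 15.2, 13.7 and 12.9 CPM to 37.1, 42.5 and 38.6 CPM. Of noncoding RNAs, MCPH1-AS1 had 13, 13 and 25 counts with vehicle and 339, 322 and 314 with DOX (log2 fold change 4.50, SE 0.227, adjusted p = 0.00687), and the adjoining gene ENSG00000271743 on the same strand had 4, 6 and 4 and then 117, 94 and 112 counts. How reads were assigned to strand is not given in the sources used here, so reads of MCPH1-AS1 and of the gene opposite it may be mixed. PPM1K-DT, a divergent transcript beside PPM1K, had 16, 8 and 11 counts with vehicle and 222, 209 and 199 with DOX (4.36, SE 0.314). Downward, NEURL1B, an E3 ligase gene of the Notch pathway, fell from 36.7, 27.6 and 28.5 CPM to 9.46, 10.1 and 8.99 CPM (-1.70, SE 0.149, adjusted p = 0.0123). GLCE, an epimerase of heparan sulphate synthesis, fell by 1.67 from 33.5 ± 6.91 to 10.5 ± 1.19 CPM (SD, n = 3 each). HTR3A, a serotonin receptor gene, fell by 1.62, the leukotriene receptor gene LTB4R by 1.53 and the cytidine deaminase gene APOBEC3B by 1.35.

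DU-145 cells with the same vector and treatment served as the other line, and an interaction term over all 12 samples tested whether DOX acted differently in them. Of the 128 genes chosen by the rule for named genes 53 differed (9.18% of 16800 genes did). Most of the 128 were chosen for their change in LNCaP-AI cells, so nothing is read from that share. The 53 divided into 33 with the log2 fold change higher in LNCaP-AI cells and 20 with it lower. CDKN1A rose in both, by 3.51 in LNCaP-AI and 2.07 in DU-145 cells, a difference of 1.48 (SE 0.144, adjusted p = 0.000457). The mitotic gene MELK fell by 1.21 in LNCaP-AI and by 0.24 in DU-145 cells (difference -0.93, adjusted p = 0.00173). Of these 53 genes, 12 were called in opposite directions in the lines. VIM, ID2, IFIT2, GBP2, ERBB2, ALDOC, JUND and STARD4 rose in LNCaP-AI and fell in DU-145 cells, and STC2, SLC6A9, APOBEC3B and EBP did the reverse. EZH2, which fell in LNCaP-AI cells, was not called in DU-145 cells, where its log2 fold change was 0.11 (difference -0.79, adjusted p = 0.00343).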

How the data were processed

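RNA-seq of LNCaP-AI/tet-MUC1shRNA cells under vehicle or DOX was analysed from the deposited gene counts, with DU-145 samples used for the interaction only. Per the labels, the authors isolated total RNA with Trizol, prepared TruSeq stranded mRNA libraries and deposited a table of counts per gene, with no normalization. The submitters' processing notes name CASAVA 1.8.2, STAR 2.7.0, DESeq2 1.24.0 and GRCh38 (patch 7), and the counting tool and its strand setting are not given in the sources used here. Symbols and positions came from GENCODE release 44 for 56993 of 58037 identifiers.

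Genes that reached 10 counts in 3 or more of the 6 samples were tested with edgeR 4.0.16 in R 4.3.3 (TMM, glmQLFit and glmQLFTest, no block), with Benjamini-Hochberg adjustment over 16030 genes and a call at an adjusted p under 0.05. Standard errors are the fold change divided by the square root of F. CPM values are TMM-normalized, except for the summed markers and the floor, which are scaled to total counts only. Log2 ratios within a set are of mean CPM + 0.5, with no test. The MUC1 values within a set are instead edgeR fits of that set, its ratios of CPM + 0.5 being -1.55 in set A and -1.36 in set B. Fits of a single set have 1 residual degree of freedom and were chosen after seeing the data. The fit without the set was tried on simulated counts that held no set difference, and the fit with the set on counts that held such a difference. The fit without the set was not tried on simulated counts with a set difference. Alternatives were DESeq2 1.42.0, other size factors, filters and fits, and leaving out each sample. Samples of the same group differed by 1.87 (DOX 2 with DOX 3) to 44.3 (vehicle 1 with vehicle 3) in chi-square per degree of freedom. The pair next to the lowest was vehicle 2 with vehicle 3, at 6.17. DOX 2 and DOX 3 were thus far closer than other replicates, and leaving out either left 1 call. No pair was merged, so 6 samples were kept. Promoter letters come from RefSeq windows on GRCh38.p14.

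The genes named are those the study names for these cells, in each direction the 15 genes with the smallest adjusted p among those called with a log2 fold change of at least 1 over all samples and within both sets and no overlap, and up to 3 called members of each list in each direction that moved the same way in both sets (for a list with none, the 2 with the smallest adjusted p). Some genes, and 1 list of the 30 written, are not reported here. BUB3, MAD2L1, DEPDC1 and NUSAP1 were added for a range and for promoters. Members, lists and sets were chosen with earlier results of these data known. Lists were written from general knowledge, are described by counts and medians, and were given no set test. Intervals and the floor of 3 counts cover counting error only.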

Additional observations from a re-analysis of the deposited data

Results flagged for a closer look

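For 53 of the named genes the effect of DOX differed between LNCaP-AI and DU-145 cells in the edgeR test of the interaction over all 12 samples (adjusted p from 9.54e-05 to 0.0409). The values below, for the genes reported here, are the LNCaP-AI log2 fold change less that of DU-145 cells. With the replicate number as a block 12 of the genes differed. Markers of the DU-145 type list were higher in set B (1823 to 2022 CPM) than in set A (151 to 324 CPM), and their part in these differences was not tested.

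Genes called in opposite directions, higher in LNCaP-AI and lower in DU-145 cells, were VIM (1.53), ID2 (2.40), IFIT2 (2.94), GBP2 (3.02), ERBB2 (1.74), STARD4 (2.12), ALDOC (2.29) and JUND (0.80), and the reverse held for STC2 (-1.53), SLC6A9 (-1.59), APOBEC3B (-1.74) and EBP (-0.73). The interferon-stimulated genes IFIT2 and GBP2 had the largest differences of these.

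Genes called higher in both lines and by more in LNCaP-AI cells were CDKN1A (1.48), KIAA0319 (1.69), RDH11 (0.99), LPXN (1.77), H2BC5 (1.12), HERC3 (1.30), LAMC1 (0.56), EDEM2 (0.50), ALDOA (0.45) and SQSTM1 (0.42). TNFRSF10A (-0.68) and ATF3 (-0.83) were called higher in both and by less in LNCaP-AI cells. Genes called lower in both and by more in LNCaP-AI cells were MELK (-0.93), GAS2L3 (-0.71), E2F8 (-0.87), RFC3 (-0.66), ATAD2 (-0.74), GINS1 (-0.58) and E2F1 (-0.57), genes of division and replication apart from ATAD2. MUC1 fell by less in LNCaP-AI cells (1.95), where its vehicle level was close to the floor.

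Of genes called in LNCaP-AI cells and not called or not tested in DU-145 cells, those higher were CDKN2B (2.86), MCPH1-AS1 (5.37, not tested in DU-145 cells alone), SLC45A3 (2.05), BTG2 (2.07), PIR (1.21), CCND1 (0.66), TM7SF2 (1.57), PHLDA3 (1.59), PRDX1 (0.64), ME1 (1.00), CLDN4 (1.35), ISG15 (0.84) and SEC61B (0.32), and those lower were EZH2 (-0.79), RRM1 (-0.84), NUP50 (-0.51) and MYBL2 (-0.89). MYC (-0.63), JAG1 (-0.85) and KLF4 (-1.95) were called higher in DU-145 cells and not called in LNCaP-AI cells.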

How the results depend on the processing

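The numbers of genes called depended strongly on the model. Counts of genes higher and lower with DOX were 1897 and 1620 with DESeq2, 2256 and 1677 when all 12 samples were fitted together, 3013 and 3258 with the set as a term, 3617 and 3502 in set A alone, and 175 and 61 against a log2 fold change of 0.5 (glmTreat), beside 1158 and 885. Leaving out 1 sample gave 0 to 1665 higher and 0 to 1238 lower. DESeq2 size factors, upper-quartile normalization, other filters and set B alone kept both counts within 1.5 times. MUC1 ranged from -2.65 to -2.22 when 1 sample was left out, and its other alternatives from -2.62 to -2.29, with adjusted p from 4.08e-06 to 0.166.

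Blocking on the replicate number left 0 genes higher and 0 lower in edgeR (2909 at an unadjusted p under 0.05), and MUC1 was -2.53 with an adjusted p of 0.166. Same-numbered samples deviated in opposite ways (correlations -0.940, -0.812 and -0.840). These deviations hold the difference between the sets, and same-numbered samples lie in different sets. The correlations therefore cannot show whether the numbers pair the samples beneath that difference. With the block 12 of the named genes differed between the lines, against 53 without it and 40 to 69 when 1 LNCaP-AI sample was left out.

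Of the 115 called genes named besides MUC1, all kept their direction in every alternative. Most were chosen as called and moving the same way within both sets, so this was largely fixed by the choice. Leaving out vehicle 2 or vehicle 3 left 0 of the 115 past the threshold, and leaving out DOX 2 or DOX 3 left 1. RB1 changed sign without DOX 1 (0.0082; -0.12 to 0.0082 when 1 sample was left out) and was not called in any fit. List medians kept their sign in every edgeR alternative checked except for the neuroendocrine, Notch and polyamine lists. DESeq2 and the fits of a single set were left out of that check. By the ratios within a set, the sign also changed for 2 other lists. The TGF-beta and BMP median was -0.31 over the 6 samples, 0.13 in set A and -0.06 in set B. That of glycolysis and hypoxia was -0.09, -0.07 and 0.02. The low counts of MUC1 and of the neural factors limit the precision of their values.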

Other observations

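Histone genes, a group taken by symbol after its values were seen, were often called higher with DOX. Most are clustered genes for histones made in S phase, whose usual transcripts end without a poly(A) tail, so that a poly(A)-selected library counts mainly the tailed forms. Of 29 with enough counts, 16 were called higher and 0 lower by edgeR (19 and 0 by DESeq2, 20 and 0 at an unadjusted p under 0.05). The edgeR shares over all genes were 7.22% and 5.52%. Within both sets 22 were higher and 1 lower, beside 36.2% and 41.5% of all genes, and the median log2 fold change was 0.90. With the set in the model 22 were higher and 2, H1-4 and H1-10, lower, beside 18.8% and 20.3% of all genes. Since the group was taken after its values were seen, nothing is read from its counts against these shares. H1-10, a linker histone gene on chromosome 3 that is not tied to S phase, was the member lower within both sets, and H4C16 also lies outside the clusters, on chromosome 12. H2BC21 had 966, 562 and 840 counts with vehicle and 4072, 3802 and 3689 with DOX. H4C5 had 66, 25 and 61 counts with vehicle and 251, 233 and 245 with DOX, and H3C10 had 458, 319 and 431 and then 1136, 965 and 979. Near-identical copies of these genes can share reads, so single members are uncertain.

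KRT14, a basal keratin gene, was the 1 basal marker of 12 called with DOX over the 6 samples (7 were lower and 2 higher within both sets, beside 41.5% and 36.2% of all genes, with a median log2 fold change of -1.18), with 22, 20 and 27 counts with vehicle and 75, 76 and 74 with DOX (log2 fold change 1.92, SE 0.215, adjusted p = 0.0123, edgeR). Its level did not follow the sets, unlike the summed basal markers, and the 5 of 12 luminal markers that were called rose in the same samples.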
